A study of Mus musculus with 3 samples.

Results

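The regions described here are wild type (WT) ATAC-seq peaks that no Taf4 KO peak overlapped. They were chosen by overlap alone, as WT peaks on chromosomes 1 to 19 that shared not even 1 bp with a peak of either Taf4 KO list, at 1 or at 5 weeks. There were 11240 of them among 59626 WT peaks (18.9% of the tested WT peaks) and 362977 peaks in the whole series. Peaks with a -log10 q of 3 or more, where q is the adjusted p of the peak caller, were kept as a separate set. These numbered 1196 of 34819 WT peaks at that strength (3.43%). Because absence from the Taf4 KO lists selected the regions, these shares describe the selection and nothing was tested with them.

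ATAC-seq was performed on cells dissociated from isolated Langerhans islets of mice of strain C5LBl6, as the label spells it. There were 3 libraries with 1 per group, namely wild type, Taf4 KO at 1 week and Taf4 KO at 5 weeks. According to the study's methods, Taf4 was deleted in adults by a tamoxifen-inducible Cre recombinase from an Ins1::Cre-ERT2 transgene, so that deletion was restricted to beta cells and the other islet cells kept the gene. Control animals of the study carried the same Cre with intact Taf4 and also received tamoxifen. No library was replicated, so the differences below have no replicate check and no p-value is given between conditions. In islets as a whole, fewer cells of a type and less accessibility per cell cannot be told apart. Promoters of the beta cell genes Ins1, Ins2, Pdx1, Nkx6-1, Mafa and Neurod1 each held 1 WT peak, and each of these was overlapped in both Taf4 KO lists, so the islet label matched its defining genes.

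In ATAC-seq a transposase cuts nuclear DNA where nucleosomes leave it exposed, and reads pile up over such open chromatin. Open regions at gene starts bind the general transcription machinery, of which TFIID with its Taf4 subunit is a part, whereas those between genes and in introns are mostly enhancers and insulators bound by sequence-specific factors. In beta cells such factors include the homeodomain proteins Pdx1 and Nkx6-1, the forkhead proteins Foxa1 and Foxa2, Neurod1 and Rfx6. AP-1 is a family of Fos and Jun dimers that many cell types activate in response to stress, growth factors or calcium.

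The sequences of the 5 strongest WT-only peaks show what kinds of DNA they held. They were read from the plus strand of the mouse genome NCBIM37, which is mm9, over 300 bases around the peak midpoint, and named by the nearest coding start. Annotated exons were left out, and where an exon split the window only the longer stretch beside it is printed. Capitals mark matches on either strand to any of 15 short motifs bound by known factors.
D5Ertd579e, chr5:37052066-37052365: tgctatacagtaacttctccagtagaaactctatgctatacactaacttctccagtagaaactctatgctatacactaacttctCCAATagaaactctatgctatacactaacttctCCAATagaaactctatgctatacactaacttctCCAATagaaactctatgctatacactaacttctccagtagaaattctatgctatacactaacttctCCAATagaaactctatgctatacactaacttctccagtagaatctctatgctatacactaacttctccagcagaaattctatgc
Swap70, chr7:117431758-117432057: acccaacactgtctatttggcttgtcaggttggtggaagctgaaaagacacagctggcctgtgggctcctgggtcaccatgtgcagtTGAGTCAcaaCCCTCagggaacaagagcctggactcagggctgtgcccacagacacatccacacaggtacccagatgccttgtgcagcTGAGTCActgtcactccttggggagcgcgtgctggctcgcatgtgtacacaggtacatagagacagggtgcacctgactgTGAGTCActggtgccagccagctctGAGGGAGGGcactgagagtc
Cyp2g1, chr7:27585138-27585437: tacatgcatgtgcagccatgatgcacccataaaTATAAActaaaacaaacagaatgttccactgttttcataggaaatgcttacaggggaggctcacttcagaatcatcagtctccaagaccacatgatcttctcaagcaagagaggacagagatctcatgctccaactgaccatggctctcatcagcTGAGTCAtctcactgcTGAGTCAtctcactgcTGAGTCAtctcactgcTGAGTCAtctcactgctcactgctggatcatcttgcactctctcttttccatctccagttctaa
Mllt3, chr4:87700947-87701246: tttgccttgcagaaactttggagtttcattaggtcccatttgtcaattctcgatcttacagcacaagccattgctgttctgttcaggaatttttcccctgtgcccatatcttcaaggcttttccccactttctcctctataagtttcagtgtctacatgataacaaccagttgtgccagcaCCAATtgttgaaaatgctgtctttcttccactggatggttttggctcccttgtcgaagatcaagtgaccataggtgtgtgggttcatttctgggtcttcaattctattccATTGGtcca
Tspan3, chr9:56071579-56071723: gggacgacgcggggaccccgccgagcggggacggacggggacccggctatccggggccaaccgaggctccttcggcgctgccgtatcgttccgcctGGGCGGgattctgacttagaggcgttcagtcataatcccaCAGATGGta
The D5Ertd579e sequence was a tandem repeat without a CG dinucleotide, in which the 4 capital stretches were CCAAT boxes (CCAAT). Swap70 and Cyp2g1 held 3 and 4 matches to the AP-1 motif TGANTCA. The other capitals were CTCF core matches (CCCTC) in Swap70 and a TATA box (TATAAA) in Cyp2g1, while Mllt3 held 2 CCAAT boxes and the sequence near Tspan3 a GC box (GGGCGG) and a Neurod1 E-box (CAGATGG). In the Cyp2g1 sequence these 4 matches lay in a short tandem array. The Mllt3 sequence belonged to DNA found all over the genome, since its 24-base words occurred a median of 12052 times in mm9. The fifth sequence, in an intron of C230081A13Rik, had 18 CG in 145 bases and lay beside an exon annotated as the microRNA mmu-mir-2134-4. Words of its window had a median of 4 copies on the mm9 chromosomes searched, and 92.4% were present at least 2 times. Copies outside these chromosomes were not counted. The motif matches in it are runs of letters, and binding was not tested.

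Few beta cell genes had a WT-only peak in the promoter window, defined as the 1000 bp before and the 100 bp after a coding start. They included Slc2a2, the glucose transporter of beta cells, and the transcription factors Rfx3 and Foxa1. Their sequences are shown for what a weak WT-only promoter peak held, again without exons and with only the longer stretch beside an exon.
Slc2a2, chr3:28596954-28597053: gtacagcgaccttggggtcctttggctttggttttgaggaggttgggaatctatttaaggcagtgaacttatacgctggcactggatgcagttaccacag
Rfx3, chr19:28058291-28058590: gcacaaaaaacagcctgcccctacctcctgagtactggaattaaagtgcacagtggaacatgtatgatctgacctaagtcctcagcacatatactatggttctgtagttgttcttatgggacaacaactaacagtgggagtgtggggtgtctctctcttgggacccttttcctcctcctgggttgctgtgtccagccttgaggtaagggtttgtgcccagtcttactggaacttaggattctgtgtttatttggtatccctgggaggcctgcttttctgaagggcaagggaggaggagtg
Foxa1, chr12:58647486-58647785: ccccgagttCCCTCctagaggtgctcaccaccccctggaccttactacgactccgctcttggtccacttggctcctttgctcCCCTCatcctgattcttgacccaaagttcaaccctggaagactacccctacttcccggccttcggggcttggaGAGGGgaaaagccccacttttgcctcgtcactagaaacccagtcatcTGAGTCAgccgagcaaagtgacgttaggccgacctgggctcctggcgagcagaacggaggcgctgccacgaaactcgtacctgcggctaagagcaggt
For Slc2a2 the printed bases followed the first exon. The bases of its window before that exon are not shown, and the matches given next do not cover them. In the printed bases the only matches were 3 to the CTCF core CCCTC and 1 to the AP-1 motif, all at Foxa1.

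WT-only peaks were weak and narrow. Their median -log10 q was 1.78, with 1.36 at the 10th percentile, 3.08 at the 90th and 17.7 for the strongest. The median fold of reads over the local background was 2.69 and the median width 306 bp. WT peaks overlapped in both Taf4 KO lists, of which there were 35835, had medians of 6.14, 3.65 and 647 bp. The reads piled up at a WT-only peak, recovered from its fold and p, had a median of 12.4 over a background of 3.78, against 23.7 over 5.4 where all 3 lists held the peak. The lowest pileup of any WT-only peak was 11 reads, so most stood little above the level needed for a call.

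The weaker a WT peak, the more often it was WT-only. The share was 59.4% (Wilson 95% interval 58.0 to 60.8) at a -log10 q of 1 to 1.5 and 48.8% at 1.5 to 2. It was 25.8% at 2 to 3, 8.04% at 3 to 5 and 2.18% at 5 to 10. At 10 to 20 only 36 of 8818 WT peaks were WT-only (0.408%, 0.295 to 0.565). Of the 2929 WT peaks at 20 or more, 0 were, which allows a share of up to 0.102% by a floor of 3 counts. Every WT peak at 20 or more was thus found in at least 1 Taf4 KO list. Intervals cover the counting of peaks and not the difference between animals.

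**Figure D1:**
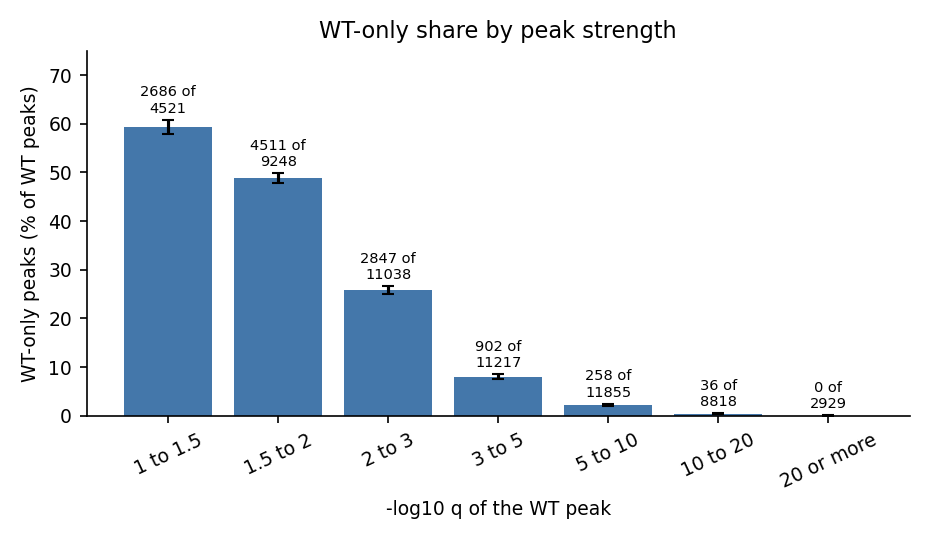
Share of WT peaks that were WT-only (vertical axis, %) by the -log10 q of the WT peak (horizontal axis), with Wilson 95% intervals and the counts above each bar. The share fell from 59.4% in the weakest peaks to 0 of 2929 in the strongest.

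Libraries appeared to differ in depth, which was read from the local background because read totals were not given. The first percentile of the local backgrounds, a floor that grows with the number of reads if read extension is equal, was 3.66 reads for WT. Taf4 KO libraries had 6.45 reads at 1 week, 1.76 times the WT floor, and 9.38 at 5 weeks, 2.56 times it, so the WT list came from the library with the lowest floor. The Taf4 KO lists held 138129 and 150230 peaks on the same chromosomes. A peak at a -log10 q of 1.5 to 2 had a median fold of 2.67 in the WT list, but of 2.28 in the 1 week and 2.08 in the 5 week list. Over all peaks the median fold was likewise lower in these longer lists, at 2.41 and 2.24 against 3.18 for WT. Whether an equally accessible site would be called in each library cannot be read from these folds. The part of depth in the choice of WT-only peaks was not tested.

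Most WT-only peaks were not near misses of the overlap rule. A Taf4 KO peak lay within 100 bp of 178 of them (1.58%), within 500 bp of 566 (5.04%) and within 10 kb of 8405 (74.8%). The median distance to the nearest peak was 10461 bp at 1 week and 5821 bp at 5 weeks. At the edge of the rule, 24 WT-only peaks had a Taf4 KO peak less than 10 bp away, with a median -log10 q of 1.65, while 28 WT peaks overlapped by at most 10 bp and hence not chosen had a median of 1.71. At the edge of the stronger set, 41 WT-only peaks lay just above a -log10 q of 3, with a median of 3.02, and 58 just below it, with a median of 2.97. The second pair of medians is set by the threshold itself.

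WT-only peaks lay away from gene starts. Only 285 (2.54%, 2.26 to 2.84) touched a promoter window, 770 (6.85%) had their midpoint in an exon, 5379 (47.9%) in an intron and 4806 (42.8%) between genes. Of the peaks in all 3 lists 29.7% lay at promoters. When weighted to the -log10 q of the WT-only peaks, the promoter share was 9.12% in peaks of all 3 lists and 8.13% in the 11700 peaks overlapped at 5 weeks only. It was 2.01% in the 851 peaks overlapped at 1 week only, close to the WT-only share. In the stronger set 32 of 1196 peaks lay at promoters (2.68%). Exons showed the opposite order, at 6.85% of WT-only peaks (6.4 to 7.33) against a weighted 3.37% in all 3 lists.

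Read by class, a weak promoter peak of WT was less often WT-only than other weak peaks. At a -log10 q below 2 the share was 29.2% (25.9 to 32.8) at promoters, 52.0% in introns, 53.3% between genes and 65.7% (62.4 to 68.8) in exons. At 5 or more it was 0.133% at promoters, 13 of 9808, and 2.19% between genes. The median distance from a WT-only peak to the nearest coding start was 23588 bp, against 14991 bp in all 3 lists and 16792 bp in peaks overlapped at 5 weeks only. It was longest, at 46996 bp, in those overlapped at 1 week only.

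**Figure D2:**
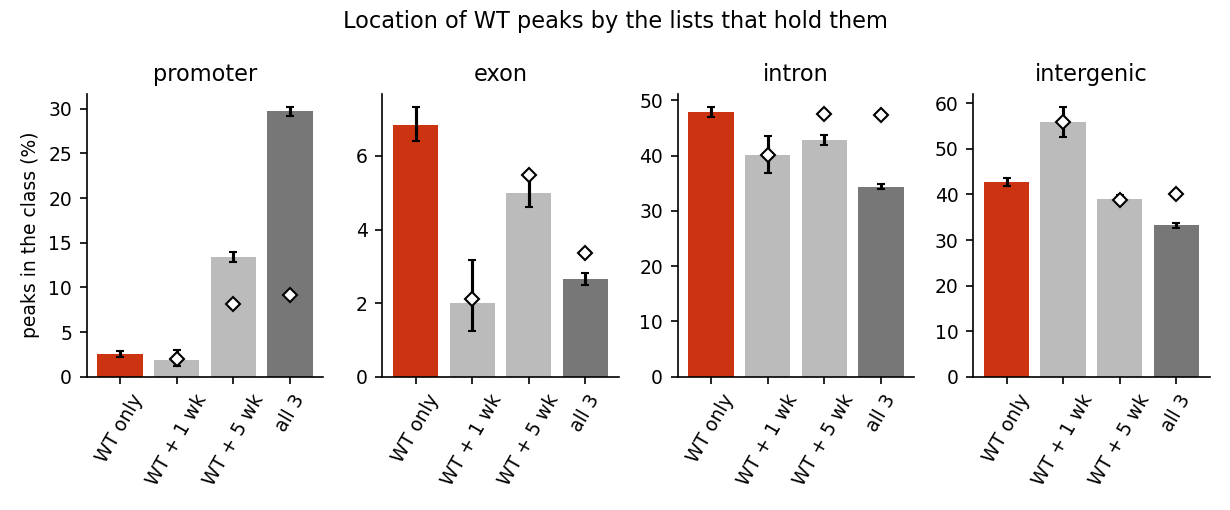
Percentage of peaks (vertical axes) in each location class for WT-only peaks (red) and for WT peaks also found at 1 week only, at 5 weeks only or in all 3 lists (grey), with Wilson 95% intervals. Diamonds give the share after weighting to the -log10 q of WT-only peaks, and at promoters they stand at 9.12% for all 3 lists against 2.54% for WT-only peaks.

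Among the stronger WT-only peaks, AP-1 motifs were common. Outside promoters, TGANTCA was found in the 300 bases around the midpoint of 359 of 1164 WT-only peaks with a -log10 q of 3 or more (30.8%, 28.3 to 33.6), against 14.8% (14.3 to 15.2) of the other WT peaks of that strength. Weighted to the GC content and -log10 q of the WT-only peaks, the share of the others was 14.4%. TGANTCA reads alike on both strands and can share bases with the Maf site TGCTGAC. Up to a -log10 q of 10 the share rose with strength among WT-only peaks, from 11% below 2 to 17.9% at 2 to 3, 27.5% at 3 to 5 and 42.4% (36.4 to 48.7) at 5 to 10. At 10 or more it was lower, at 12 of 36 (33.3%, 20.2 to 49.7), an interval that overlaps the one before. Without windows of repeated, duplicated or tandem sequence it was not lower, at 12 of 23 (52.2%, 33 to 70.8) against 46.3% (39.6 to 53.2) at 5 to 10. With all windows kept, the share among other WT peaks went from 10.7% below 2 to 15% at 5 to 10 and 17.6% at 10 or more.

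Peaks with more than 1 AP-1 match were a minority, but a larger one among the stronger WT-only peaks than among the others. At least 2 matches were present in 88 of the 1164 stronger WT-only peaks (7.56%, 6.18 to 9.22) and in 1.62% of the others. Of 513 matches in the stronger WT-only peaks, 229 (44.6%, 40.4 to 49.0) lay within 50 bp of the midpoint, against 38.5% (37.0 to 40.1) in the others. Leaving out windows of repeated, duplicated or tandem sequence, the share with AP-1 was 33.5% of 1015 stronger WT-only peaks and 14.9% of the others. Peaks of that strength overlapped at 5 weeks only held the motif in 18.3% (17.2 to 19.5), those overlapped at 1 week only in 26.1% (20.2 to 33) and those in all 3 lists in 13.9%. At this strength the share was thus highest in WT-only peaks, but the 1 week only interval held the WT-only value of 30.8%. The share was above the all-3 value in the other incomplete classes too. Over all strengths outside promoters the order differed. Peaks overlapped at 1 week only then held the motif in 17.5% (15.1 to 20.2) and WT-only peaks in 14.9% (14.2 to 15.6). Counted the other way, 9.72% (8.80 to 10.7) of WT peaks with a -log10 q of 3 or more outside promoters and with AP-1 were WT-only, and 4.02% (3.75 to 4.30) of those without. The AP-1 motif was picked out after all 16 motifs had been counted.

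Several motifs were rarer in WT-only peaks, those of some beta cell factors among them. Over all 10955 WT-only peaks outside promoters, the homeodomain motif TAATTA, bound by Pdx1 and Nkx6-1 among others, was found in 3.73% (3.39 to 4.10), against 6.43% of other WT peaks weighted to the same GC content and -log10 q. The forkhead motif TGTTTAC stood at 4.78% against 7.05% and the Neurod1 E-box CAGATGG at 9.31% against 11.1%. The GC box GGGCGG, bound by Sp and Klf factors, was found in 4.97% and 7.25%. Lower shares were thus not confined to beta cell factors, as the CTCF core (58.2% and 61.8%) and the TATA box (8.07% and 9.56%) also had them. The Yy1 motif AAGATGGC (1.94% and 1.58%) and the CA repeat (8.85% and 8.16%) went the other way. For the Maf site TGCTGAC (7.61% and 7.69%), the CCAAT box (30.1% and 29.5%) and the E-box CACGTG (5.34% and 5.62%) the weighted value lay inside the interval of the WT-only peaks. A match is a run of letters in a window, counted on both strands, and not a bound site.

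**Figure D3:**
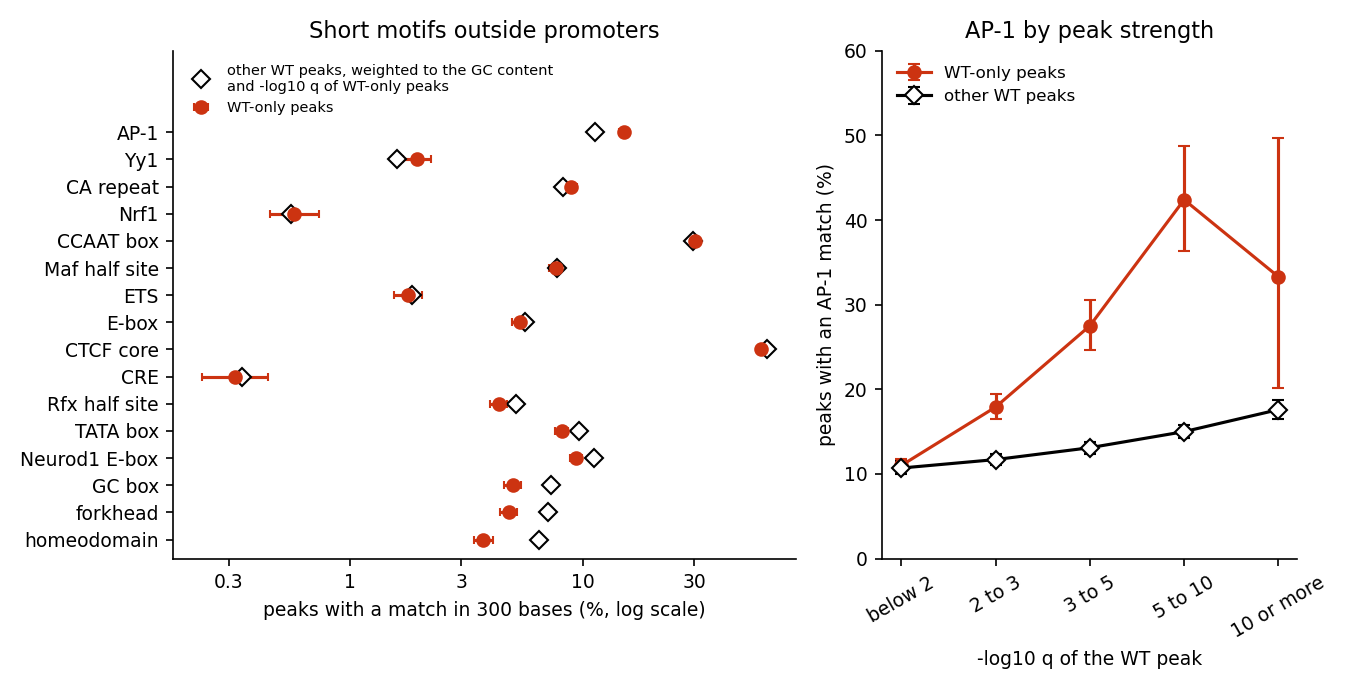
Left, percentage of peaks outside promoters with a motif match in 300 bases (horizontal axis, log scale) for WT-only peaks (red, Wilson 95% intervals) and for other WT peaks weighted to the GC content and -log10 q of the WT-only peaks (diamonds). Right, percentage of peaks with an AP-1 match (vertical axis) by -log10 q (horizontal axis), which reached 42.4% of WT-only peaks and 15% of other WT peaks at 5 to 10.

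CG-rich windows were scarcer among WT-only peaks than in all 3 lists, and scarcest in peaks overlapped at 1 week only. A ratio of observed to expected CG of 0.6 or more in the 300 bases was found in 275 of 11240 (2.45%), against 27.7% in all 3 lists, or 8.46% after weighting to the same -log10 q. Of the peaks overlapped at 1 week only, 13 of 851 (1.53%, weighted 1.91%) had such a ratio. At promoters it was 45 of 285 WT-only peaks (15.8%) against a weighted 41.8% in all 3 lists and 0 of 16 in the peaks overlapped at 1 week only. Most WT-only promoter windows were thus poor in CG.

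WT peaks in repeated DNA were more often WT-only than those in single-copy DNA, at every strength. A window was called repeated where over 50% of its 24-base words occurred 10 or more times in mm9, and duplicated where over 50% occurred 2 or more times but it was not repeated. These definitions were made after the sequences above had been seen. Of 425 repeated WT peaks, 277 were WT-only (65.2%, 60.5 to 69.6), of 915 duplicated ones 313 (34.2%, 31.2 to 37.3) and of 58286 with single-copy sequence 10650 (18.3%). At a -log10 q of 5 to 10 the shares were 52.5%, 12.1% and 1.83%, and at 10 or more 31.0%, 2.54% and 0.207%. Repeated windows made up 9 of the 36 WT-only peaks at 10 or more (25%, 13.8 to 41.1) but 2.46% of all WT-only peaks. The study's mapping settings kept reads with a unique place, and the part of read placement in these peaks was not tested.

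**Figure D4:**
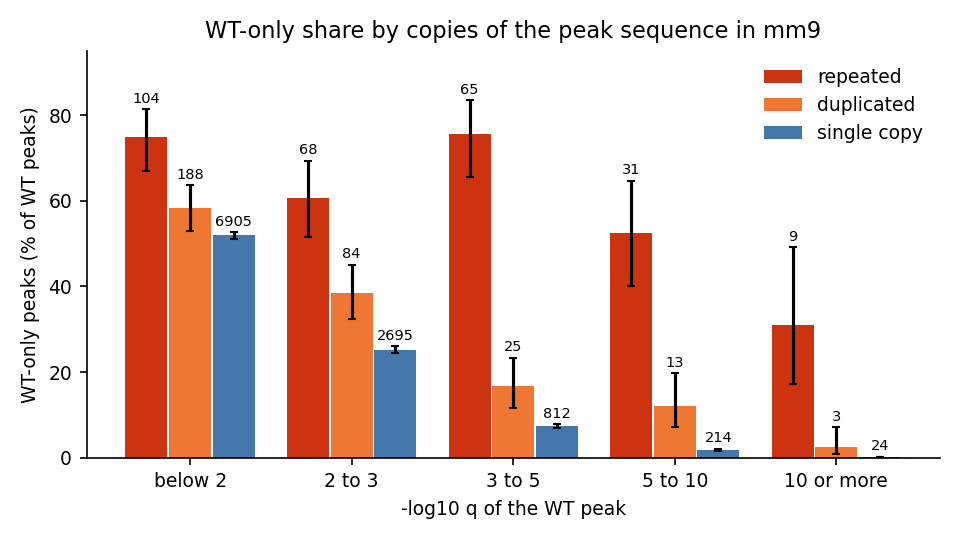
Share of WT peaks that were WT-only (vertical axis, %) by -log10 q (horizontal axis) for windows of repeated, duplicated and single-copy sequence in mm9, with Wilson 95% intervals and the number of WT-only peaks above each bar. At 5 to 10 the shares were 52.5%, 12.1% and 1.83%.

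The 15 strongest WT-only peaks had a -log10 q from 11.4 to 17.7, and 0 of them lay at a promoter. In the order of strength, the first lay in an intron of D5Ertd579e at chr5:37051993-37052439 with a fold of 7.05. The second lay past the end of Swap70, 66691 bp from its start, with a -log10 q of 15.5. Swap70 is a signalling protein of B cells and mast cells. The third was centred at -8658 bp from the start of the cytochrome Cyp2g1, with 15.2. Peaks near Mllt3 and Tspan3 both had 14.1. Of the 15, 3 windows were repeated, 2 were duplicated and 5 held AP-1 matches.

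The other 10 ranged more widely. Peaks lay in introns of Btbd8 (nearest start A830010M20Rik, 13.1), of Dgkg, a diacylglycerol kinase (12.9), of E430025E21Rik (12.7) and of Me2 (nearest start Elac1, 11.5), and in the untranslated exon of Ptrh2 (12.9). The Ptrh2 window held 3 AP-1 matches and the Dgkg window 1. Between genes, peaks lay near Slc30a10, a manganese exporter (12.4), 9230019H11Rik (12.2), Gm5465 (11.9) and Avpi1 (11.4), and 513694 bp from the start of Myc, a growth regulator (12). At 5 weeks the nearest peak to the Myc one was 57756 bp away and at 1 week 70264 bp, whereas the Swap70 peak had a 5 week peak at 620 bp. Near 9230019H11Rik the window was repeated and its background reached 13.8 reads, against a median of 3.78 over all WT-only peaks.

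Among protein-coding genes, 285 of 21410 (1.33%) had a WT-only peak in the promoter window, 33 of them (0.154% of all genes) at a -log10 q of 3 or more. Of the 285 genes, 100 also had a Taf4 KO peak elsewhere in the promoter window and 185 had none. The strongest were at Gm10720 (-log10 q 9.46), Adam23, a cell adhesion protein of neurons (8.13), Syt11, a synaptotagmin of vesicle traffic (7.89), Cwf19l1 (7.11) and Gon4l (6.87). Tagap1 (6.53), Fgfr1op, a centrosome protein (6.11), Eif4enif1, a transporter of the translation factor eIF4E (6.04), Gm3776 (5.91) and Gm10716 (5.52) followed. At Adam23 both Taf4 KO lists had another promoter peak, and at Syt11 the 5 week list did. The remaining 8 of these genes had no promoter peak in either Taf4 KO list.

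Many of these promoters lay in DNA that mm9 holds more than once. Repeated windows were found at Gm10720 and Gm10716, with a median of 27 and 17 copies per word. At Syt11, Gon4l, Tagap1 and Fgfr1op the windows were duplicated, with 88.8%, 91.3%, 97.8% and 100% of words present at least 2 times and a median of 2 copies each. Gm3776 had 3 copies. Only Adam23, Cwf19l1 and Eif4enif1 of the 10 had single-copy windows. Over all 285 WT-only promoter peaks 19 were duplicated (6.67%, 4.31 to 10.2), against 1.10% (0.934 to 1.31) of the other promoter peaks of WT. Of the 10, the Fgfr1op peak was farthest from any Taf4 KO peak, at 117284 bp for 1 week and 67083 bp for 5 weeks.

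At beta cell genes the WT-only promoter peaks were weak, as were WT-only peaks in general, whose median -log10 q was 1.78. Slc2a2 had a -log10 q of 2.15 with a fold of 2.05, from 30.5 reads over a local background of 14.4. Such a background is high, as only 62 of the WT-only peaks (0.552%) had 10 or more reads, against 13.1% of peaks in all 3 lists. The nearest Taf4 KO peaks lay 1302 bp away at 1 week and 1139 bp at 5 weeks. Rfx3 had a -log10 q of 2.08 and Foxa1 1.37, with 12.4 and 12.6 reads. Taf4 KO peaks came within 461 and 458 bp of the Foxa1 peak but no nearer than 4048 bp to the Rfx3 peak. By list, 2 of 22 beta cell factors and 2 of 27 genes for glucose sensing and insulin had a WT-only promoter peak, as did 0 of 13 alpha cell genes and 1 of 12 delta and PP cell genes, beside 1.33% of all genes. Lists of this size hold too few genes at that rate for the counts to set the cell types apart. The delta and PP cell gene was Crhr2, a receptor for urocortins, at 1.85. Of the other lists, vesicle fusion had Syt11 (1 of 25 genes) and cell adhesion the guidance factor Slit1 (1 of 20), at 1.17, while 0 were found in the lists of 11 to 31 genes for TFIID, the unfolded protein response, ion channels, the circadian clock, chromatin remodellers and the endothelial, stellate, acinar, duct and immune markers.

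Within gene bodies or 10 kb upstream, WT-only peaks were found at 4984 genes (23.3%). Of the genes for glucose sensing and insulin production 15 of 27 had at least 1, and of the beta cell transcription factors 9 of 22. Such counts were not particular to beta cell lists. Chromatin remodellers had 9 of 15, cell adhesion 11 of 20, ion channels 17 of 31, the unfolded protein response 9 of 18 and vesicle fusion 12 of 25. Lower counts were found for alpha cell genes (2 of 13), TFIID (3 of 14) and the circadian clock (3 of 16), among others. Long genes with many peaks count more easily here, so the share of a list's WT peaks that were WT-only is given too. Such a share still varies with location, as 2.28% of WT peaks at promoters and 23.3% in introns were WT-only. The share of a list was not weighted for location or -log10 q. It was 22.7% of 304 peaks for glucose sensing and insulin and 14.3% of 133 for the factors, against 16.6% over all genes. Alpha cell genes stood at 15.1% of 53 peaks, delta and PP cell genes at 11.1% of 18 and TFIID genes at 7.89% of 38. At a -log10 q of 3 or more, the beta cell lists had a WT-only peak in introns of Pcsk2, a convertase that cuts proinsulin (3.72), and of Ptprn2, a protein of insulin granules (3.23). These were 0 of 22 factors and 2 of 27 genes for glucose sensing and insulin, and the alpha, delta and PP cell lists had 0 of 13 and 0 of 12. Over all genes the count was 736 (3.44%), and counts this small do not tell the lists apart.

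For other lists the shares were 26.1% of 46 peaks for the unfolded protein response, 23.0% of 113 for vesicle fusion, 19.8% of 222 for ion channels and 21.8% of 110 for chromatin remodellers. Cell adhesion had 19.5% of 169 and the circadian clock 18.7% of 91. Markers of other cells gave few peaks of any kind, with 25% of 8 for immune cells, 21.4% of 14 for acinar cells, 12.5% of 24 for endothelial cells, 14.3% of 7 for stellate cells and 8.33% of 24 for duct cells. Their part in the WT-only peaks was not tested.

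The GC content of the surroundings went with the WT-only share. WT peaks were ordered by how GC-rich the surrounding 1 Mb was and cut into 5 groups of equal number. From the least to the most GC-rich group, 12.9% (12.3 to 13.5), 17.6%, 20.1%, 21.6% and 22.0% (21.2 to 22.7) were WT-only. This gradient was not particular to WT-only peaks. From the least to the most GC-rich group, peaks overlapped at 5 weeks only went from 7.16% to 33% of WT peaks. Those overlapped at 1 week only went the other way, from 3.56% to 0.21%. The gradient of the WT-only share lay in the weak peaks, where this share went from 36.9% to 60.4% at a -log10 q below 2. At 3 or more it was 3.54% (3.14 to 3.98) in the least and 2.86% (2.49 to 3.28) in the most GC-rich group, the opposite order. With a -log10 q of at least 3 asked of all 3 lists, the shares were 7.12% and 5.39%. By chromosome the share was lowest on chromosome 3, at 14.8%, and highest on chromosome 19, at 22.4%.

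**Figure D5:**
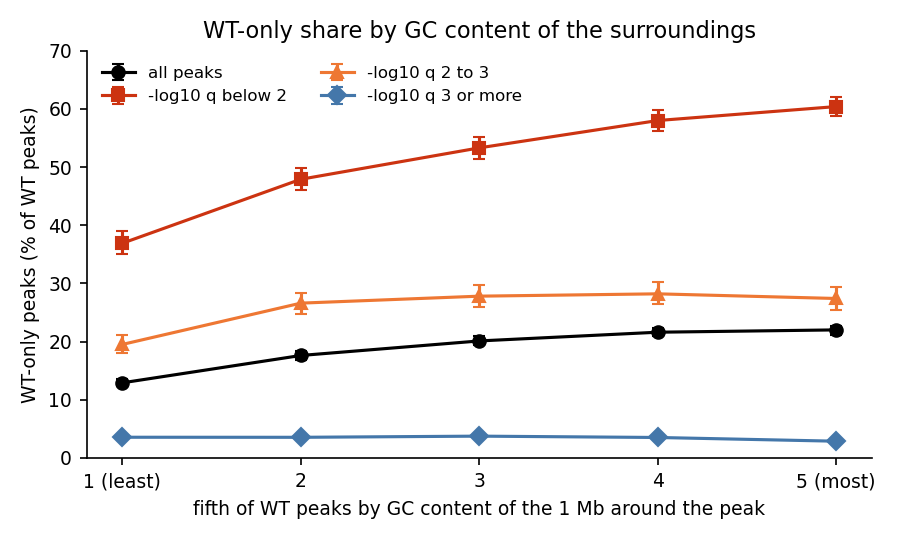
Share of WT peaks that were WT-only (vertical axis, %) in 5 groups of equal number by the GC content of the surrounding 1 Mb (horizontal axis), for all peaks and by -log10 q, with Wilson 95% intervals. In peaks below 2 the share went from 36.9% to 60.4%, and in peaks at 3 or more from 3.54% to 2.86%.

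Most stretches free of Taf4 KO peaks held a single WT-only peak, but WT-only peaks were not set apart from other WT peaks. Their median distance to the nearest WT peak was 8244 bp, against 8655 bp in all 3 lists. It was 6878 bp in peaks overlapped at 5 weeks only and 15310 bp in those overlapped at 1 week only. A WT peak lay within 5 kb of 27.3% of WT-only peaks and 29.6% of peaks in all 3 lists. The stretches between neighbouring Taf4 KO peaks that held any WT-only peak numbered 9733, and 8492 of them (87.2%) held 1. At least 4 were found in 45 stretches and at least 5 in 10. A stretch of 64.3 kb over the Ugt1a genes, which encode enzymes of glucuronidation, held 6 WT-only peaks with a -log10 q from 2.02 to 4.89. Another of 37.1 kb at Mtss1l also held 6, from 1.41 to 3.23. Stretches at Ndel1, Rora and Prkca held 5 each. These genes were chosen for their runs, after the values had been seen.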

How the data were processed

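ATAC-seq libraries of WT, Taf4 KO 1 week and Taf4 KO 5 weeks, 1 each, were compared. Per the labels and the study's methods, the authors demultiplexed reads with bcl2fastq 2.17.1.14, mapped them to mm9 with Bowtie 1.0.0, with reads of a single reported alignment kept, and then called peaks for each library with MACS2 2.1.1. A control library, duplicate removal and a shift to the insertion site are not given in the sources used here. The deposited lists hold for each peak a fold, the ratio to local background, and 2 values of the authors' peak caller, -log10 p and -log10 q. The deposited score is 10 times the -log10 q and was not used. Read totals were not given, so depth was read from the background floor, the first percentile of the local backgrounds that fold and p together fix. It assumes equal read extension in all libraries.

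Lists were intersected in Python 3.11.15 with NumPy 2.4.6, pandas 2.3.3 and numba 0.67.0, and steps were tested on simulated data. Genes and starts (46015 coding starts) came from GENCODE for NCBIM37, the same build as mm9. Words of 24 bases were counted over chromosomes 1 to 19, X and Y on both strands. Weighted shares give other peaks the -log10 q, or GC content and -log10 q, of WT-only peaks. Intervals are Wilson 95% intervals. They treat peaks as independent and cover counting only. The 16 gene lists held 292 entries, of which 281 lay on chromosomes 1 to 19, and Amy2b and Spi1 were not matched.

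Genes were named by a rule: the 15 strongest WT-only peaks, the 10 strongest WT-only promoter peaks, beta, alpha and delta cell genes with a WT-only promoter peak or, at a -log10 q of 3 or more, one in the body or 10 kb upstream, and up to 3 promoter genes of each other list. The regions and lists were chosen with earlier results of these data known. Some genes that the rule names are not reported here. No test between conditions was run. Alternatives were other overlap rules, equal list lengths, a -log10 q minimum, a wider promoter window, another GC window, the sex chromosomes and leaving out repeated windows.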

Additional observations from a re-analysis of the deposited data

How the results depend on the processing

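No paired analysis was possible because each group had 1 library, and for the same reason none could be left out. Of 35 values under 8 other settings, 12 stayed within 1.5 times the count or inside the interval of the share. With a reciprocal overlap of 50%, WT-only peaks numbered 19757, or 4242 at a -log10 q of 3 or more, with a promoter share of 5.96%, 1188 promoter genes and WT-only shares of 35.3% in the most and 30.3% in the least GC-rich surroundings. With Taf4 KO lists of the same length as the WT list there were 2235 WT-only peaks at 3 or more, a promoter share of 3.85%, 635 promoter genes and GC shares of 30.3% and 21.5%. Keeping only peaks at 3 or more in every list gave 2361 WT-only peaks, against 1196 where only the WT peaks were cut at 3. The promoter share was then 4.32% against 2.68%, with 106 against 33 promoter genes. The GC shares were 5.39% and 7.12%, so that the order of the GC groups turned. Asking for no Taf4 KO peak within 500 bp gave GC shares of 21.2% and 11.8%, and GC content over 100 kb gave 20.9% and 13.8%. A promoter window from 2000 bp upstream to 500 bp downstream gave 4.49% and 503 genes. Leaving out repeated windows, an alternative chosen after seeing the data, gave 11.9% in the least GC-rich surroundings. Where a setting changes the overlap rule or the lists, it changes the choice of regions by construction. A median WT-only peak rested on 12.4 reads over a background of 3.78, and the effect of depth was not tested.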

Other observations

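Some WT-only peaks stood on a high local background. The 62 with a local background of 10 or more reads included, named here after their values were seen, an intron of Sfi1 (80.1 reads over 41.7) and an intron of Irf2bp2 (64.6 over 28.8). Taf4 KO peaks lay 153 bp and 81 bp from the Sfi1 peak and 1840 bp and 1367 bp from the Irf2bp2 peak. Of the 62 windows, 4 were repeated (6.45%, 2.54 to 15.4), against 0.156% of other WT peaks with such a background. Whether the background came from open chromatin was not tested.

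Tandem sequence was counted apart from copies elsewhere in the genome. A window was called tandem where over 25% of its 12-base words occurred more than once in it. Of the WT-only peaks 265 (2.36%, 2.09 to 2.65) were tandem, against 0.452% (0.388 to 0.527) of peaks in all 3 lists. At a -log10 q of 10 or more it was 4 of 36 (11.1%, 4.41 to 25.3) and 0.388%.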
